A study of Homo sapiens with 8 samples.

Results

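Gene deserts are long stretches of the genome without protein-coding genes, and the accessible sites inside them can only act on such genes over large distances. The desert regions described here are merged ATAC-seq peaks whose midpoint lay more than 500 kb from every transcription start site (TSS) of a protein-coding gene in GENCODE and that carried a peak in both replicates of at least 1 stage. The peaks of 8 libraries merged into 285853 regions on chromosomes 1 to 22 and X, of which 131954 had a peak in both replicates of a stage. Of these, 7306 (5.54%) met the distance rule and are called members below. The rule used position and presence only, so that stage, strength, sequence and flanking genes are free to vary among members.

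ATAC-seq, in which a transposase cuts and tags open chromatin, was performed on RUES2 human embryonic stem cells and on their derivatives during cardiac differentiation in monolayer. The hESC samples were collected on day 0, after a day in the Wnt pathway activator CHIR-99021, and mesoderm (MES) samples on day 2, after a second exposure to CHIR-99021. Cardiac progenitors (CP) were collected on day 5, following the Wnt inhibitor Xav-939 from day 3, and cardiomyocytes (CM) on day 14, after culture with B27 from day 7. Each stage has 2 biological replicates, all of this 1 line and without a sort, and cells were taken fresh. The deposited lists held between 55873 peaks (CM replicate 2) and 156282 peaks (MES replicate 2), and read depth is not given in the sources used here. A peak in both replicates lay within 1 kb of a TSS of NANOG, a pluripotency factor, in hESC and MES but not in CP or CM, and of MYH6, a cardiac myosin, in CM only. Most promoters of the marker list were open throughout: such a peak was found at 5, 5, 4 and 3 of 5 hESC markers, 5, 5, 5 and 5 of 5 MES markers, 4, 5, 5 and 5 of 5 CP markers and 2, 3, 3 and 4 of 5 CM markers, in the order of the stages. Among 8 marker genes of neural, endodermal, endothelial and stromal cells, 6, 6, 6 and 5 had such a peak in hESC, MES, CP and CM, and the part of other cell types in the results was not tested.

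Most distal accessible sites are thought to act as enhancers, in which short motifs are bound by transcription factors that recruit coactivators and contact promoters by looping. Sites in large deserts are known to control developmental genes at the desert's edge, and such genes often encode transcription factors, signalling molecules or adhesion proteins. Pluripotent cells use OCT and SOX family factors, mesendoderm uses T-box, GATA and OTX factors, and cardiac cells use GATA, NKX, T-box and MEF2 factors. CTCF, in contrast, marks loop anchors and insulators that are shared among cell types.

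The 200 bp around the summit of the strongest peak are shown for a leading member of the MES, CP and CM classes and of the class of all stages. Leading means the member with the highest lower bound of the MACS2 −log10 q over the libraries of its class. A class names the stages with a peak in both replicates, so that a member of 1 class can still carry a peak in a single replicate of another stage. Letters in capitals mark any of 12 motifs searched on both strands, and the sequences are the plus strand of the hg38 reference. The MES member lies at chr1:96087813-96088012 between RWDD3 and PTBP2 and the CP member at chr4:160283197-160283396 between RAPGEF2 and FSTL5. The CM member lies at chr13:86883045-86883244 between SLITRK6 and SLITRK5 and was second in its class, and the member of all 4 stages lies at chr17:22521367-22521566 between KCNJ18 and WSB1.
Leading MES member: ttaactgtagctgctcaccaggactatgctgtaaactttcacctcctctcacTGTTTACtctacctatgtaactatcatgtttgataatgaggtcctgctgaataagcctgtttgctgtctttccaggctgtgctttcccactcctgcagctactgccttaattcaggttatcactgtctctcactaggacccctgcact
Leading CP member: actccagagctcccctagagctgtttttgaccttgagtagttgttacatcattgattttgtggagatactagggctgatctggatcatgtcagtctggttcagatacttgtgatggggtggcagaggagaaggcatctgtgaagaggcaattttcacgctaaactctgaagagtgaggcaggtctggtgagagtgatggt
Second CM member: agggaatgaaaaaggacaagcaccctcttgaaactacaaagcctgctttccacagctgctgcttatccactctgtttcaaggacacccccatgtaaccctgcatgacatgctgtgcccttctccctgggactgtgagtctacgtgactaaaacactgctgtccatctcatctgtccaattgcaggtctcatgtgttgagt
Leading member of all stages: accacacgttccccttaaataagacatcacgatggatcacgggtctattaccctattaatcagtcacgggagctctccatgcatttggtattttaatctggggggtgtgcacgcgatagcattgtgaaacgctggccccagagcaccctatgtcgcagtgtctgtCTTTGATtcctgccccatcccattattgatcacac
Only the MES sequence, with the FOX motif TGTTTAC, and the sequence of all stages, with the TCF/LEF motif ATCAAAG on the minus strand, held any of the 12 motifs.

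A second set of sequences shows how motifs of interest for each class sit in a desert region. These were chosen after the values were seen, as the strongest member of a class that holds the named motifs. For hESC no sequence is shown, and 17 of 1689 hESC-only members (1.01%) held both the OCT motif ATGCAAA and the SOX motif ACAATGG. The MES member at chr12:83470866-83471065, between TMTC2 and SLC6A15, holds the GATA motif AGATAA and the OTX motif GGATTA, found together in 89 of 1521 MES-only members (5.85%). The CP member at chr2:116586467-116586666, between DPP10 and DDX18 and also called in CM replicate 1 (fold 4.67), holds a GATA motif. That motif does not set the CP class apart: 18.8% of CP-only members held it, against 16.4% of all members, 23.3% of MES-only and 31.8% of CM-only members. The CM member at chr11:116074251-116074450, between CADM1 and BUD13, was also called in MES replicate 1 (fold 4.35) and CP replicate 2 (4.87). Its fold in the CM replicates was 4.38 and 7.25. It holds GATA and the NKX motif TNAAGTG, found together in 26 of 359 CM-only members (7.24%). These pairs of motifs were not counted over all members or all regions. Whether the motifs of a pair occur together more often than their single shares allow was not tested. The member of all stages at chr20:30585389-30585588, between ZNF337 and DEFB115, holds the CTCF motif.
MES with GATA and OTX: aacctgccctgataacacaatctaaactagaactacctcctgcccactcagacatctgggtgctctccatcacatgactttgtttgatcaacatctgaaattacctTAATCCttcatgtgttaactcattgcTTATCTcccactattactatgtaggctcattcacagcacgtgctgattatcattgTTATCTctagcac
CP with GATA: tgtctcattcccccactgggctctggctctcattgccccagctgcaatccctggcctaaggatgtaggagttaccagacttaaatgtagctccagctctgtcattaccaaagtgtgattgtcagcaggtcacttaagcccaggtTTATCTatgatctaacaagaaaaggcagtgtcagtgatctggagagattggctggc
CM with GATA and NKX: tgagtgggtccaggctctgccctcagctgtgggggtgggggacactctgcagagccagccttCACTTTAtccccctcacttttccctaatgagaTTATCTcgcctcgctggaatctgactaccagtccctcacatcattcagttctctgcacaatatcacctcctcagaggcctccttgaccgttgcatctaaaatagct
All stages with CTCF: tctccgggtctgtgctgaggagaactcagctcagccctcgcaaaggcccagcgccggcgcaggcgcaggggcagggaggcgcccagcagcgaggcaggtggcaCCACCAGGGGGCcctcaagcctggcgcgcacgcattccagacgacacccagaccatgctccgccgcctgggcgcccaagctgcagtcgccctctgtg
The capitals mark the named motifs only, and most of them lie on the minus strand in these windows.

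Accessibility in gene deserts was highest at the first stages and lowest in cardiomyocytes. A peak in both replicates was present at 4251 members in hESC (58.2%), 4408 (60.3%) in MES, 2699 (36.9%) for CP and 1150 (15.7%) for CM. Over all 131954 regions the same shares were 64.1%, 67.9%, 51.8% and 32.0%. Members thus lay below the background at every stage, with the widest gap in CP and CM. The length of the peak lists moved with these counts: with lists of equal length, 1762 (53.4%), 1772 (53.7%), 1181 (35.8%) and 951 (28.8%) of 3297 members were present in the order of the stages. Among the 78752 regions 10 to 500 kb from a TSS, called nearer distal regions below, 59.1%, 63.5%, 45.4% and 23.8% were present in hESC, MES, CP and CM.

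The desert share of the regions called in a library fell with differentiation. Members made up 5.08% and 5.15% of the regions called in the hESC libraries, 4.96% and 5.23% (MES), 4.12% and 4.52% (CP), and 3.35% and 2.98% (CM). The hESC and MES libraries overlap, and both CP libraries lie below them and above both CM libraries. The mean was 5.11% ± 0.0483 (hESC), 5.09% ± 0.191 (MES), 4.32% ± 0.280 (CP) and 3.17% ± 0.260 (CM) (SD, n = 2 each). The difference CM minus hESC was -1.95 percentage points, and the 4 stages differed with F = 36.3 (exact permutation test over all divisions of the libraries into pairs, p = 0.0286; the smallest p it allows is 0.00952). The regions counted had to have a peak in both replicates of a stage, so replicates of a stage share regions by rule. That can narrow the spread within a stage against which F is set. With replicate numbers as a block, the exact permutation p was above 0.05, as given below. The number of members called was 4420 and 5122 (hESC), 4603 and 5551 (MES), 3209 and 3868 (CP), and 2116 and 1371 (CM), highest in MES. With all lists cut to the 55777 most significant peaks, the desert share was 3.95% and 3.89% (hESC), 3.92% and 3.89% (MES), 3.11% and 3.24% (CP) and 2.66% and 2.72% (CM). Without CP replicate 1 the difference was -1.90 points and its exact p was 0.133, and when every peak of a library was counted, the exact p was 0.0571. Over every peak, without the filter on replicates, the shares were 5.30% and 5.64% (hESC), 5.04% and 6.09% (MES), 4.26% and 5.03% (CP), and 3.66% and 3.29% (CM). In bulk libraries, fewer cells with an open site and less opening per cell cannot be told apart.

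**Figure D1:**
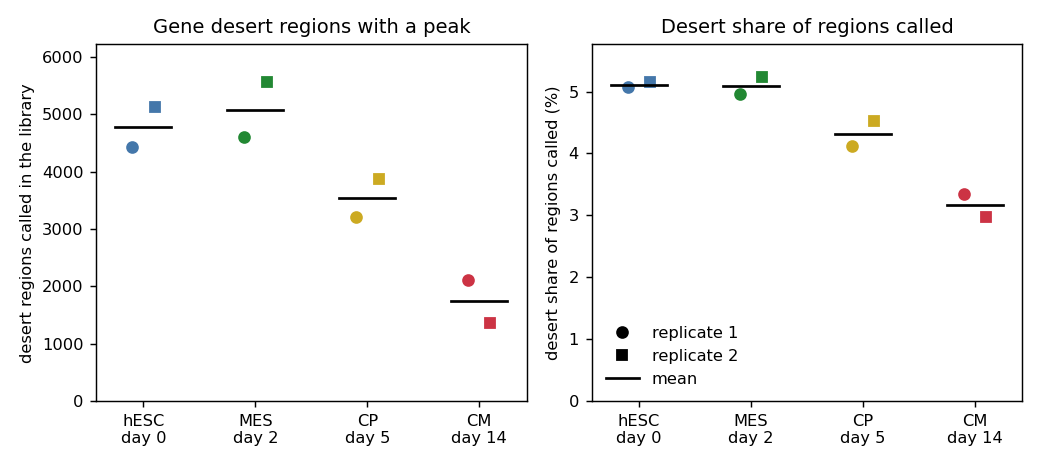
Desert regions called in each of the 8 libraries (left, number) and their share of all regions called in that library (right, percent), by stage and day. Circles and squares are the replicates and lines their mean (n = 2); the share lies near 5.11% in hESC and at 3.35% and 2.98% in the CM libraries.

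Presence in CM was lower at each greater distance from a protein-coding TSS, while presence in hESC changed little beyond 100 kb. Of regions within 1 kb of a TSS, 71.5% were present in CM. This share was 28.5% at 1 to 10 kb, 25.5% at 10 to 100 kb, 20.1% at 100 to 500 kb, 15.9% of the 5388 members at 500 kb to 1 Mb and 15.2% of the 1918 members beyond 1 Mb. In hESC the corresponding shares at the last 3 distances were 56.9%, 58.2% and 58.1%. The 500 kb limit does not cut a step: 18.9% of the 1087 regions at 450 to 500 kb were present in CM, and 17.7% of the 965 members at 500 to 550 kb.

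Most members had a peak in both replicates of a single stage only, which is how presence is counted here. A peak was present in hESC and no other stage at 1689 members (23.1%; 16.2% of all regions), in MES alone at 1521 (20.8%; 15.2%), in CP alone at 521 (7.13%; 6.15%) and in CM alone at 359 (4.91%; 5.10%). Single-stage members together numbered 4090 (56.0%), against 42.6% of all regions and 48.7% of nearer distal regions. In contrast, 463 members (6.34%) were present at all 4 stages, against 21.3% of all regions and 11.8% of nearer distal regions. Of the members present in hESC, 55.3% persisted to MES, 36.6% to CP and 12.9% to CM. The same figures were 63.6%, 47.6% and 22.5% for nearer distal regions. Of the 1150 members present in CM, 698 were also present in CP.

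Peaks in deserts had a slightly higher fold enrichment than those nearer to genes. The median MACS2 fold enrichment of called members was 5.56 and 5.70 (hESC), 5.65 and 5.87 (MES), 4.90 and 6.04 (CP), and 4.50 and 5.37 (CM). Replicates of CP and of CM differed more than the stage means of hESC and MES did. Within each library, the median log2 fold of members exceeded that of nearer distal regions by between 0.01 and 0.08, on average 0.05 ± 0.02 (SD, n = 8), higher in 8 of 8 libraries (exact two-sided sign-flip permutation test, p = 0.00781, the smallest it can give). The median −log10 q was lower in members than in nearer distal regions in all 8 libraries, for example 9.95 against 10.8 in hESC replicate 1 and 8.19 against 8.89 in CM replicate 2. The sites are shared among libraries, so these 8 values are not separate samples of sites.

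Most members lay outside genes of any kind. In the annotation, 4944 members (67.7%) lay in no gene, 2362 (32.3%) in a gene of some kind, 2150 (29.4%) in a lncRNA gene and 148 (2.03%) inside the body of a protein-coding gene whose TSS was over 500 kb away, 2 of them in an exon. Nearer distal regions lay in no gene in 41.4% of cases and in a lncRNA gene in 22.2%. A lncRNA TSS lay within 1 kb of 216 members (2.96%), against 4.29% of nearer distal regions and 6.18% of all regions. Among the 463 members of all stages it did so for 42 (9.07%), against 12.2% of nearer distal regions of all stages. Members had a median width of 432 bp against 448 bp, and a median GC content of 48.5% against 51.5% in nearer distal regions.

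The motif content of accessible desert regions changed with the stage. The share of called members whose 200 bp window held the GATA motif AGATAA was 10.5% and 10.8% (hESC), 17.4% and 16.2% (MES), 16.2% and 16.8% (CP), and 18.3% and 21.7% (CM). Both hESC libraries lie below all others and both CM libraries above them. The OCT motif ATGCAAA, bound by POU5F1 and its relatives, went the other way, from 7.71% and 7.20% (hESC) through 5.69% and 5.91% (MES) and 4.33% and 4.16% (CP) to 3.64% and 3.72% (CM). The stages do not overlap for this motif. The SOX motif ACAATGG was found in 4.42% ± 0.0592 of called members in hESC and 2.64% ± 0.0146 in CM (SD, n = 2). These shifts were not limited to deserts. In nearer distal regions, the mean GATA share rose from 8.01% in hESC to 15.5% in CM. The mean share there fell from 6.11% in hESC to 3.37% in CM for OCT, and from 3.34% to 2.23% for SOX.

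The OTX and T-box motifs had their highest shares in MES. GGATTA, bound by OTX2 and GSC, was present in 11.1% and 10.2% of members called in MES, against 7.22% and 7.44% (hESC), 7.51% and 7.55% (CP) and 6.29% and 5.76% (CM). The T-box motif AGGTGTNA, of the family of TBXT and EOMES, was held by 6.37% and 5.98% in MES and by between 4.11% and 4.80% in the other 6 libraries. Binding of these factors was not measured. No library of another stage reached the MES values for either motif. Nearer distal regions also had their highest shares in MES, at 8.94% and 8.58% for OTX and 6.28% and 5.95% for T-box.

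By the exact permutation test of F over all divisions of the libraries into pairs, 9 of 12 motifs differed between stages at a Benjamini-Hochberg adjusted p below 0.05. These were GATA, OCT, SOX, T-box, TEAD (CATTCCA), AP-1 (TGANTCA), TCF/LEF (ATCAAAG) and OTX, each with an exact adjusted p of 0.0286, and MEF2 with 0.0381. NKX, at 11.9% in hESC and 15.4% in CM on average, had an exact adjusted p of 0.0857, CTCF 0.0686 and FOX (TGTTTAC) 0.0831. Members had entered by a peak in both replicates of a stage, so replicates of a stage share members by rule. That can narrow the spread within a stage, and the test was not run on peaks without this filter. With replicate numbers as a block, no motif passed, as given below. The calls rest on single libraries: leaving out hESC replicate 1, CP replicate 1 or CP replicate 2 left 0 motifs past the threshold, leaving out MES replicate 1 left 3, and leaving out hESC replicate 2 or MES replicate 2 left 5. GC content moved little beside these shares, with medians of 49% in the hESC and MES libraries, 50.5% and 50% in CP and 50% and 48% in CM, and its part was not tested.

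Motif shares in the single-stage classes are given as a description of the members behind these values. GATA was present in 31.8% and NKX in 22.3% of the 359 CM-only members, against 16.4% and 12.7% of all members. In hESC-only members OCT reached 10.2% and SOX 5.45%, against 6.26% and 3.78% of all members. MES-only members held GATA in 23.3%, OTX in 17.9% and T-box in 8.88%. The members of all stages held the CTCF motif in 13.2%, while 4.11% of all members and 0.836% of CM-only members did. Nearer distal regions of the same classes held GATA in 25.3% and NKX in 19.6% (CM-only), OCT in 8.62% (hESC-only), GATA in 18.9%, OTX in 14.0% and T-box in 10.7% (MES-only), and CTCF in 15.6% (all stages), so that T-box and CTCF were more frequent there than in members.

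Compared with nearer distal regions of the same library, desert regions held more GATA, NKX and FOX motifs and fewer CTCF motifs. The GATA share was higher in members by 3.42 ± 0.964 percentage points (SD, n = 8), that of NKX by 2.57 ± 0.847 and that of FOX by 1.28 ± 0.441, each in 8 of 8 libraries. CTCF was lower in members in 8 of 8 libraries, with a difference of -3.02 ± 0.208 points, and AP-1, bound by FOS and JUN proteins, likewise with -0.881 ± 0.506. By the exact two-sided sign-flip test with Benjamini-Hochberg adjustment, 11 of 12 motifs differed, 9 higher and 2 lower in members, with an adjusted p of 0.0104 for GATA, NKX, OCT, SOX, MEF2, AP-1, CTCF, OTX and FOX. Before adjustment, the sign-flip p of these motifs was 0.00781, the smallest the test can give. A motif is fixed in the sequence of a site and the sites are shared among libraries. The 8 differences are therefore not separate samples of sites. TEAD did not pass, with a difference of -0.118 points and an exact adjusted p of 0.0625. Of all 131954 regions, 11.6% held GATA, 9.61% NKX, 4.58% OCT, 2.82% SOX, 4.69% T-box, 2.57% MEF2, 4.44% TEAD, 8.19% AP-1, 2.73% TCF/LEF, 6.60% CTCF, 7.11% OTX and 4.01% FOX in a window of the same length. No motif contains another, although neighbouring matches can overlap. The median GC content of called members was lower than that of nearer distal regions in all 8 libraries, 49% against 52% in hESC replicate 1, and its part in these differences was not tested.

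The leading members of each class were chosen by their peaks, so their values are a description. The second hESC member (chr6:141388288-141389194), between CITED2 and NMBR and with an NKX motif, had a fold enrichment of 11.7 and 11 in the hESC replicates and 4.86 in MES replicate 2, with no peak in the other 5 libraries. The first MES member (chr1:96087691-96088154) had 11.9 and 10.9 (MES), 5.81 (CP) replicate 2 and 3.23 (CM) replicate 1. The first CP member (chr4:160283046-160283513) had 10.7 and 17.1 in CP and 4.80 in CM replicate 2. CM-only members led with chr8:82961088-82961471, between SNX16 and RALYL and with a GATA motif, at 10.2 and 13.8 (CM), 7.67 (CP) replicate 2 and 3.85 (MES) replicate 2. The third CM member (chr9:11257804-11258467), between PTPRD and TYRP1 and also with a GATA motif, had 8.92 and 11.03 in CM and 5.81 in CP replicate 2. Each of the 3 leading CP members also had a peak in CM replicate 2, and each of the 3 leading CM members in CP replicate 2.

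The leading member of all stages, by its lowest −log10 q over the 8 libraries, lay at chr17:22521269-22521725, between KCNJ18 and WSB1. Its fold enrichment was 24.9 and 19.6 (hESC), 24.1 and 22.1 (MES), 24.4 and 22.5 (CP), and 19.0 and 23.1 (CM). The stages overlap, while the median fold of the 463 members of all stages was lowest in the CM libraries, at 7.74 and 8.54 (hESC), 9.04 and 10.1 (MES), 7.09 and 10.3 (CP), and 5.92 and 5.65 (CM). This member matches the mitochondrial genome over 240 bp at 88.8% identity, and ATAC-seq libraries usually hold many mitochondrial fragments. In all, 7 members matched the mitochondrial genome over at least 100 bp, 2 of them present at all stages, and the part of mitochondrial reads in their peaks was not tested. The second member of this class (chr21:8234065-8234856) lies on the short arm of chromosome 21, with a fold of 15.7 to 18.6, and the third (chr5:8457264-8458344) lies 0.098 kb from the TSS of the lncRNA gene MIR4458HG, with 10.9 to 13.4. Each of these changed little between libraries.

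Members with a peak in all 8 libraries could be compared between stages without any having had to differ. Of 28115 regions fitted with limma on log2 fold after median centring, 6.12% were higher and 5.75% lower in CM than in hESC at a Benjamini-Hochberg adjusted p below 0.05. Of the 463 members fitted, 26 (5.62%) were higher and 83 (17.9%) were lower. Of the nearer distal regions fitted, 521 of 9330 (5.58%) were higher and 1071 (11.5%) lower. The median log2 change from hESC to CM was -0.18 in members, -0.09 in nearer distal regions and 0.10 in all regions fitted. The scaling set the number of rises: over all regions, 1721 rose and 1618 fell after median centring, 1132 rose and 1659 fell after quantile normalization, and 141 rose and 1728 fell with no centring, where the median of all regions was -0.12. The corresponding counts of members were 26 and 83, 18 and 78, and 4 and 79, in the same order. Without hESC replicate 1 the counts of members were 14 and 41, without hESC replicate 2 they were 13 and 27, and without CM replicate 1 they were 13 and 76.

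The members that rose most were found in several deserts. The region at chr9:62838069-62838789, between CNTNAP3C and FOXD4L5, had a fold of 6.77 and 8.37 (hESC), 13.3 and 12.96 (MES), 11.3 and 16.3 (CP), and 18.3 and 16.1 (CM). All libraries after hESC lie above both hESC libraries, and the log2 change was 1.41 ± 0.161 (SE; limma adjusted p = 0.000909). The flanking symbols belong to multicopy gene families next to the centromere of chromosome 9, where near-identical copies can share reads. A region with a GATA motif at chr20:11248561-11249555, between JAG1, a Notch ligand, and BTBD3, had 4.35 and 3.38 (hESC), 9.60 and 12.2 (MES), 8.07 and 11.7 (CP), and 6.70 and 10.1 (CM). It was lowest in both hESC libraries, and its log2 change was 1.32 ± 0.195 (SE; limma adjusted p = 0.00209). The next were chr2:194842645-194843312 between TMEFF2 and SLC39A10 with an NKX motif, chr13:87094543-87094952 between SLITRK6 and SLITRK5 with a GATA motif, and chr13:81927428-81928063 between SPRY2 and SLITRK1 with both. Their log2 changes were 1.13 ± 0.234, 1.12 ± 0.167 and 1.11 ± 0.233 (SE; limma adjusted p = 0.0108, 0.00221 and 0.0112). The regions of the TMEFF2 and SPRY2 deserts lost their call without hESC replicate 1 (adjusted p = 0.0550 and 0.0821), without CM replicate 1 (0.0648 and 0.0629) and with no centring (0.114 and 0.113), and the TMEFF2 region also without hESC replicate 2 (0.0586).

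In 4 of the 5 members that fell most, both CM libraries lay below the other 6. The region at chr2:226215891-226216336, between NYAP2 and IRS1, an insulin receptor substrate, had a fold of 14.3 and 15.3 (hESC), 13.5 and 13.6 (MES), 11.3 and 15.1 (CP), and 5.21 and 5.09 (CM). Both CM libraries lie far below the other 6, and the log2 change was -1.30 ± 0.139 (SE; limma adjusted p = 0.000718). The same held for chr8:111100578-111101196, between KCNV1 and CSMD3 and with a CTCF motif, at 12.8 and 15.3 (hESC), 10.9 and 16.3 (CP) and 4.49 and 5.09 (CM) (log2 change -1.33 ± 0.164, SE; limma adjusted p = 0.00104). It also held for chr18:68172813-68173640 between DSEL and TMX3, with a log2 change of -1.27 ± 0.188 (SE; limma adjusted p = 0.00213). The region at chr8:128982482-128983367, between MYC, a growth-promoting transcription factor, and GSDMC, was already lower in MES, with 12.0 and 13.8 (hESC), 6.78 and 7.00 (MES), 4.70 and 10.2 (CP), and 4.85 and 3.96 (CM). Its log2 change was -1.34 ± 0.219 (SE; limma adjusted p = 0.00335). The fifth, chr9:11458169-11458796 between PTPRD and TYRP1, changed by -1.20 ± 0.188 (SE; limma adjusted p = 0.00281), and lies in the desert of a leading CM-only member.

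Nearly all deserts held members, at a lower density than the rest of the genome. The genome has 354 stretches over 500 kb from every protein-coding TSS, with 336 Mb of sequence or 11.6% of the genome, and 321 of them held a member. Density was 21.7 members per Mb, against 48.4 other regions per Mb in the rest of the genome. That rest includes promoters, and nearer distal regions alone numbered 30.6 per Mb of it. Among deserts with at least 10 members, density ran from 2.69 to 104.7 per Mb, with a median of 30.7. How well reads map in each desert was not tested. The 64 deserts with most members together held at least 50% of them in 38.9% of the desert sequence, and the median desert with a member had 16. Of the 217 deserts with at least 10 members, 210 had fewer members present in CM than in hESC, 4 had as many and 3 had more, and 10 had none in CM. The stage with most members was MES in 110 of these deserts, hESC in 83, CP in 2 and CM in 1, while hESC and MES tied in 17 and other stages in 4.

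The desert between AGA, a lysosomal enzyme gene, and TENM3, which encodes a teneurin adhesion protein, held the most members. It spans chr4:177942438-181643986 and held 134, of which 82 were present in hESC, 82 (MES), 60 (CP) and 21 (CM). The libraries called 87 and 99 of them in hESC, 86 and 104 (MES), 76 and 80 (CP), and 38 and 21 (CM), so that both CM libraries lie below all others. With lists of equal length it held 70. Members were spread along the whole desert, with between 10 and 28 in each 0.5 Mb, and the most between 2.5 and 3 Mb from its AGA end. Next was the desert between CELF4, a neuronal RNA-binding protein gene, and PIK3C3, a lipid kinase gene of autophagy, at chr18:38065828-41455233. It had 110 members and fewer in hESC (48) than in MES (62), with 40 in CP and 12 in CM. This desert had the most MES-only (28), CP-only (13) and CM-only (9) members of all deserts, and 1 member present at all stages.

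The next deserts by number of members were the following. OLFM4 to PRR20A/PRR20C on chromosome 13 held 101 members, SEL1L to FLRT2 on chromosome 14 held 92, PCDH7 to ARAP2 on chromosome 4 held 85 and NUDT12 to EFNA5 on chromosome 5 held 83. FLRT2 and PCDH7 encode neuronal adhesion proteins and EFNA5 an ephrin ligand. NUDT12 to EFNA5 had the steepest decline of these, from 55 members in hESC and 53 (MES) to 29 (CP) and 4 (CM). SPRY2 to SLITRK1, with 79 members, had 56 present in hESC, 36 (MES), 27 (CP) and 10 (CM) and 31 that were hESC-only. CDH9 to CDH6, between a pair of cadherin genes, also held 79, of which 53, 50, 24 and 11 were present in the order of the stages.

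The densest deserts among those with at least 10 members were short. CADM1 to BUD13 on chromosome 11 held 27 members in 0.258 Mb, or 104.7 per Mb, with 16 present in hESC, 17 (MES), 13 (CP) and 3 (CM). CRYBA4 to MN1 on chromosome 22 held 14 at 82.4 per Mb and ran against the general course, with 1 member present in hESC, 5 (MES), 7 (CP) and 8 (CM). In its libraries, 1 and 3 members were called in hESC, 6 and 9 (MES), 7 and 10 (CP), and 10 and 8 (CM). With lists of equal length this desert held 3 members and with a 50% reciprocal overlap of replicates 9. MN1, which encodes a transcriptional coregulator, lies at its edge. PTPRU to ENSG00000289710 on chromosome 1 held 20 members, with 10, 14, 10 and 5 present, and JAG1 to BTBD3 on chromosome 20 held 17, with 8, 12, 10 and 7. IGFBP7 to ADGRL3 on chromosome 4 was named for its 8 CM-only members of 64, and 9 of its members were present in CM in all.

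Deserts flanked by a heart or mesoderm regulator are given first, as a description without a test. Of 12 such deserts, 11 held 214 members, of which 58.4% were present in hESC, 59.8% (MES), 35.5% (CP) and 24.8% (CM), against 15.7% (CM) for all members. NR2F1 and NR2F2 encode related nuclear receptors of the atrial and venous programs. ARRDC3 to NR2F1 held 42 members, with 26, 26, 18 and 11 present in the order of the stages and 6 CM-only. MCTP2 to NR2F2 held 35, with 21, 22, 9 and 12 present and 5 CM-only, and so had more members in CM than in CP. KCNJ2 to SOX9, between a cardiac potassium channel gene and a chondrogenic and valve regulator, held 28, with 18, 15, 9 and 8 present. The lists of flanking genes were not tested against each other.

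For the other flanking lists, between 14.4% and 17.5% of members were present in CM. Next to pluripotency and early embryo regulators, 6 deserts held 57 members, with 47.4% present in hESC, 70.2% (MES), 31.6% (CP) and 17.5% (CM). DPPA4 to NECTIN3 had 7, 15, 5 and 4 of 21 present, KLF4 to ACTL7B 10, 12, 5 and 1 of 17, and FAT1 to ZFP42 3, 5, 3 and 1 of 7, so that each had its highest count in MES. Deserts beside neural and ectoderm regulators, 15 in all, held 312 members, with 54.8%, 59.3%, 35.3% and 14.4% present. In FANCL to BCL11A, 35, 30, 24 and 9 of 58 members were present, in VRK1 to BCL11B 22, 21, 13 and 7 of 41, and in DCDC2C to SOX11 24, 25, 10 and 5 of 40. The list of neuronal adhesion molecules was made by the start of the gene symbol, such as CDH, PCDH or SLITRK. It takes in whole families, and whether each gene acts in neurons was not checked. Genes of this list flanked 68 deserts with 2413 members, with 59.8%, 61.1%, 35.9% and 14.6% present.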

How the data were processed

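ATAC-seq peak lists of 8 libraries were analysed. Per the labels and the study's methods, the authors aligned reads to hg38 with BWA 0.7.13, kept primary alignments of mapping quality over 30 without Picard duplicates, and ran MACS2 2.1.0 on every library alone (q-value 0.01, 5′ ends moved back by 100 bp, extension 200 bp). The deposited columns used were the fold enrichment (a ratio over local background) and the −log10 q-value. Lists hold called peaks only, so a missing peak is not a value of 0. Peaks were merged with bedtools 2.31.1, and distances taken from GENCODE 44. A region took its highest peak in a library. Tests were exact permutations over libraries and limma 3.58.1, tested on simulated data. Named were the 8 deserts with most members, the 4 densest with at least 10 members, the 2 with most members of each single-stage class, up to 3 per flanking list, the 3 leading members per class and the 5 largest limma changes each way. Matches to the mitochondrial genome used blastn 2.17.0 (e-value 1e-10). Sequences from chromosome 8 were not printed. The leading hESC member and the hESC sequences are not reported here. The members, lists and tests were chosen with earlier results of these data known.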

Additional observations from a re-analysis of the deposited data

How the results depend on the processing

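The desert share of called regions was lower in CM than in hESC under every alternative run, by a difference of between -2.58 (gene TSS only) and -1.23 points (lists of equal length), and between -2.45 and -1.40 when 1 library was left out. Counting every peak of a library gave -1.99 (exact p = 0.0571), and against members and nearer distal regions only, chosen after seeing the data, -2.21. The log2 fold difference kept its sign and call in 13 of 13 alternatives, and the count of motifs differing from nearer distal regions stayed within 1.5 times in 14 of 14. TEAD turned from -0.118 to 0.276 points with the window at the midpoint; the cause was not tested. With only the 5′ end of each gene as TSS, 1820 members were present in CM and 5 motifs differed by stage. With lists of equal length, made from fewer peaks, 3297 members remained, with 1762 (hESC), 1772 (MES), 1181 (CP) and 951 (CM) present, and each named desert held fewer members (AGA to TENM3, 70). With no centring, 4 members were higher in CM. Leaving out a library, so that the other alone decides presence, gave 7757 to 11087 members, 4247 to 8661 in hESC, 4407 to 9332 in MES, 2694 to 5920 in CP and 1148 to 3313 in CM, and 0 to 7 motifs differing by stage. The limma counts of members were then 13 to 30 higher and 27 to 104 lower. Leaving out 1 library of a stage leaves a lone sample that is assumed to vary like the others.

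Deviations of same-numbered libraries over 28115 regions correlated at 0.129 (hESC with MES), 0.133 (hESC with CP) and 0.192 (MES with CP). With CM they correlated at -0.119 (hESC), 0.000127 (MES) and -0.00475 (CP). Replicate numbers thus did not pair the libraries across all stages. With the replicate block the desert share difference of -1.95 had an exact p of 0.0833, 0 of 12 motifs differed by stage (adjusted p of at least 0.1), and 28 members were higher and 94 lower in CM by limma. Read depth is not given in the sources used here, and the length of a peak list limits what can be called in it.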

Other observations

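The stages of members varied between chromosomes, given as values without a test. On chromosome 22, 17.2% of 29 members were present in hESC and 41.4% in CM, and on chromosome 20, 52.2% of 92 were present in hESC and 38.0% in CM. These shares rest on few deserts. On chromosome 22, CRYBA4 to MN1 held 8 members present in CM and the stretch from the chromosome start to OR11H1 held 4. On chromosome 20, ZNF337 to DEFB115 held 15. On chromosome 13, with 634 members and the highest density (28.9 per Mb), 65.0% were present in hESC and 12.3% in CM, and on chromosome 18, 11.1% of 279 were present in CM. Density was lowest on chromosomes 22 (6.02 per Mb) and 17 (8.34 per Mb). Most of the desert sequence of each lay in a single sparse stretch. On chromosome 22, 3.71 of 4.82 Mb lay between the chromosome start and OR11H1, with 4 members. On chromosome 17, 4.55 of 6.24 Mb lay between KCNJ18 and WSB1, with 5 members. How well reads map to these stretches was not tested.

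Deserts with the highest share of members in CM were looked up after the values were seen. Of the 217 deserts with at least 10 members, the median share present in CM was 14.6% and the highest 70%, in the stretch from the start of chromosome 21 to TPTE (7 of 10), followed by ZNF337 to DEFB115 on chromosome 20 (15 of 25), both beside a centromere, and CRYBA4 to MN1. RNF144B to ID4 came next with 8 of 18 members present in CM, beside ID4, an inhibitor of helix-loop-helix factors. MID1IP1 to BCOR on chromosome X had 2, 11, 9 and 5 of its 17 members present in the order of the stages, and BCOR encodes a corepressor.

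The 7 members that match the mitochondrial genome lay in 7 deserts. The longest match covered 664 bp at 83.6% identity between KCNJ3 and NR4A2, in a region present in MES and CP, and the most alike was 653 bp at 96.2% between CA10 and KIF2B, in a region present at all stages with a fold of 7.90 to 11.9. Without these 7, chosen after seeing the data, 7299 members remained.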
